A study of Mus musculus with 2 samples.

Results

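Vascular smooth muscle cells were examined in droplet-based single-cell RNA-Seq of hindlimb muscle from aged mice. They were chosen by marker counts, as cells with at least 2 unique molecular identifiers (UMIs, each standing for 1 captured RNA molecule) of Myh11, at least 5 UMIs of S (the sum of Myh11, Acta2 and Tagln), and S at least as high as K (the sum of the pericyte genes Kcnj8, Abcc9, Rgs5 and Higd1b). Cells with more than 1 UMI in all of Pecam1, Cdh5, Ptprc, Pdgfra and Pax7, which mark endothelial, immune, mesenchymal and muscle stem cells, were left out. The rule found 72 cells, hereafter the members, among 14984 cells that passed the filters on genes, mitochondrial and hemoglobin transcripts, out of 27838 barcodes. The ATRA+agonist library held 33 members and the DMSO vehicle library 39.

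Both libraries came from hindlimb muscle of female C57Bl/6J mice aged 24 months. For ATRA+agonist, the muscles were injected on 3 occasions with a mixture of BMS961, an agonist of RAR-gamma, CD3254, an agonist of RXR-alpha, and ATRA, which is all-trans retinoic acid. For DMSO vehicle, the solvent alone was injected in the same way. Cells of 2 mice per group were pooled after a sort with propidium iodide, so each group was 1 library and its mice cannot be told apart. Consequently no test between the groups was possible, and every interval given is a 95% interval that covers counting error only. Cell-to-cell and mouse-to-mouse spread is not in it.

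Smooth muscle cells wrap arteries, arterioles and larger venules and set vessel diameter by contracting. Calcium entering through voltage-gated channels or released from the sarcoplasmic reticulum activates myosin light chain kinase, which phosphorylates the myosin regulatory light chain, while other kinases and myosin phosphatase set how long that phosphorylation lasts. The contractile genes share control by serum response factor with its coactivator myocardin. Pericytes are the related mural cells of capillaries, which have little of this contractile machinery. Retinoic acid acts through nuclear receptors that bind DNA as RAR and RXR dimers.

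The members were few and varied in depth. Their UMIs numbered 803 at the lowest, 4387 at the median and 11723 at the highest in ATRA+agonist, with a total of 154920. In DMSO vehicle the corresponding values were 1113, 5058 and 13231 UMIs, with a total of 222432. Mitochondrial transcripts made up a median of 7.15% of a member's UMIs in ATRA+agonist (1.22 to 19.9%) and 4.75% in DMSO vehicle (1.33 to 17.6%). No member barcode occurred in both libraries, although 12 barcodes of the filtered cells did.

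The values that chose the members are given as a description. S had a median of 51 UMIs (5 to 372) in ATRA+agonist and 95 UMIs (7 to 324) in DMSO vehicle. Acta2, smooth muscle actin, had no UMI in 5 ATRA+agonist members and in 0 DMSO vehicle members, and Tagln, the actin-binding protein transgelin, had none in 6 and 2. Myh11, the smooth muscle myosin heavy chain, had medians of 9 and 14 UMIs. K was 0 in 11 and 18 members. Just inside the rule were 2 and 1 members with exactly 2 Myh11 UMIs, and 5 and 3 members with S of 5 to 9. Just outside were 1 and 5 cells with a single Myh11 UMI, 2 and 1 cells with S below 5, and 6 and 9 cells whose sum of excluded genes was 2 or more. K ran from 0 to 43 UMIs in ATRA+agonist members and from 0 to 66 in DMSO vehicle members. No DMSO vehicle member had K between 4 and 10. Whether the members form separate groups by K was not tested. Another 60 and 89 cells were outside because K exceeded S. Myh11 lies at chr16:14194535-14291372, Acta2 at chr19:34241090-34255590 and Tagln at chr9:45929619-45936058 (GRCm38).

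**Figure D1:**
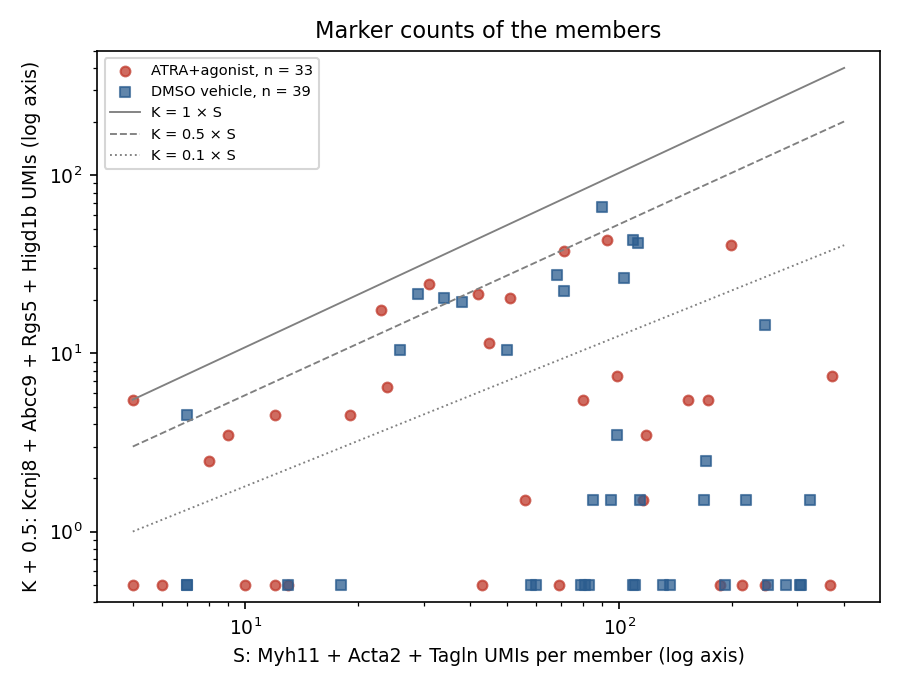
Each point is 1 member, with S (Myh11, Acta2 and Tagln UMIs) on the log x axis and K plus 0.5 (Kcnj8, Abcc9, Rgs5 and Higd1b UMIs) on the log y axis, red for ATRA+agonist and blue for DMSO vehicle. Lines mark K equal to 1, 0.5 and 0.1 times S. Members with K of 0 (11 and 18) lie on the bottom row, and 4 members of each library have K above 0.5 times S.

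Markers outside the rule gave a check of the cell type over all members together. Calponin (Cnn1), an actin-binding regulator of contraction, had a UMI in 30.3% of ATRA+agonist members and 35.9% of DMSO vehicle members, and in none of 237 and 272 pericytes. Phospholamban (Pln), the inhibitor of the sarcoplasmic calcium pump, was seen in 48.5% and 56.4% of members and in 0.844% and 1.47% of pericytes. The check did not hold evenly over members. Of Cnn1, 16 and 27 UMIs came from members with K at most 0.1 of S, and 1 and 0 from those with K above 0.1 to 0.5 of S. Neither gene had a UMI in the 4 members of each library with K above 0.5 of S. As a level of free RNA, Cnn1 UMIs occurred in 0.0465% and 0.0459% of endothelial cells, whose median depths were 3510 and 3728 UMIs. Acta2, a gene of the rule, had UMIs in 1.53% and 3.17% of those cells.

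Markers of other cell types, pericytes aside, were low but not absent in the members. The pericyte list, which includes the genes of K, had 15 or more UMIs in 9 and 13 members, at 2911 and 2680 CPM (UMIs per 1000000). With the pericyte and red blood cell lists left out of the count, 2 ATRA+agonist and 3 DMSO vehicle members had 15 or more UMIs of another type's list. In ATRA+agonist, 1 member held 207 of the 208 UMIs of the glial list. In DMSO vehicle, 1 member held 51 UMIs of the immune list and 1 held 18 of the endothelial list. The fibro-adipogenic progenitor list reached 15 and 23 UMIs in 1 member of each library, and the red blood cell list reached 51 UMIs in 1 DMSO vehicle member. Summed levels, as UMIs per 1000000 (CPM), were 181 and 234 for the endothelial list and 646 and 742 for the fibro-adipogenic progenitor list. Muscle stem cell markers were at 0 in both libraries. Red blood cell genes were lower in ATRA+agonist, at 465 against 1322 CPM, and the difference was alike in pericytes (478 and 1242 CPM) and endothelial cells (477 and 1270 CPM). None of the contributions of these cells and transcripts to the results was tested, beyond the values without the marker-rich members given with the named genes.

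Short stretches upstream of contractile genes were searched for the CArG box, the element that serum response factor binds, because these genes define the cell type. Of 37 contractile and myosin-regulating genes looked up in RefSeq (GRCm38.p6), 31 had a promoter window. Of their 38 windows of 250 bases before the start site, 7 held a CArG box or a form with 1 mismatch in its core on either strand, which is 18.4%. Among all 32851 windows the share was 8.59%. Those 7 windows belonged to Acta2, Vcl (vinculin), Pdlim3, Dstn (destrin), Crip1, Myl9 and Myl6 (myosin light chains). A match is a description of letters and not a bound site. Those without an entry included Myh11, Tagln, Actg2, Nexn and Rock1. The 3 exact boxes and both forms before Acta2, a gene of the rule, are shown 5′ to 3′ on the gene's strand, with the matched letters in capitals.
Vcl, chr14:20929161-20929190, plus strand, 227 bases before the start: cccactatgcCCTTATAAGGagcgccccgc
Myl9, chr2:156775293-156775322, plus strand, 161 bases before the start: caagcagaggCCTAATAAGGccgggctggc
Myl6, chr10:128493040-128493069, minus strand, 50 bases before the start: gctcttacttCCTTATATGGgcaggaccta
Acta2, 1 core mismatch, chr19:34255438-34255467, minus strand, 84 bases before the start: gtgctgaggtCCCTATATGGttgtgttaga
Acta2, 1 core mismatch, chr19:34255388-34255417, minus strand, 34 bases before the start: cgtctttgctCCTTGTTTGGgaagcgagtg

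To describe what set the members apart from the mural cells nearest to them, they were compared with cells of K at least 5 and K above S, here called pericytes. Levels were summed UMIs of a class per 1000000 UMIs of that class, and each log2 ratio is members over pericytes within 1 library. Of 4174 genes compared, 218 (5.22%) were at least 2-fold higher and 569 (13.6%) at least 2-fold lower in members of both libraries, with median log2 ratios over all genes of -0.24 in ATRA+agonist and -0.28 in DMSO vehicle. Since S and K fixed both classes, genes that vary with them could be expected to differ, and these ratios are a description.

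Filament genes were the group most often higher in members. Of 20 contractile filament genes compared, 15 were at least 2-fold higher in both libraries and none lower, with median log2 ratios of 2.06 and 2.15. Tpm2, a tropomyosin lying along actin filaments, was at 3705 CPM in ATRA+agonist members and 579 CPM in pericytes (log2 ratio 2.68, 2.50 to 2.85). In DMSO vehicle, Tpm2 was at 3853 and 528 CPM (2.87, 2.71 to 3.03). Both libraries thus had members well above pericytes for this gene. Mustn1, a small nuclear protein of musculoskeletal tissue, had log2 ratios of 4.65 (4.24 to 5.09) and 4.05 (3.73 to 4.37), and the actin-crosslinking filamin Flna 2.69 (2.40 to 2.98) and 2.41 (2.17 to 2.65). The actin-bundling alpha-actinin Actn1 had 3.02 and 3.43, and Pdlim3, which binds it, was also higher. Caldesmon (Cald1), which restrains the actin-myosin interaction, was less different, with 0.39 and 0.49. Cnn1, below the limit on UMIs used for the list, had 17 and 27 UMIs in members against 0 in pericytes of both libraries. With 3 counts set for each 0, Cnn1 was 31.1-fold higher in ATRA+agonist and 40.4-fold higher in DMSO vehicle. These bounds leave out the counting error of the UMIs in members.

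Regulators of myosin were split. Of 12 compared, 4 were at least 2-fold higher in members of both libraries and none was lower. These were Myl9 (1.69 and 1.57), Myl6 (1.97 and 2.39), the myosin phosphatase subunit Ppp1r12b, and the kinase Mylk (1.76 and 1.71). Rhoa, a small GTPase that regulates the actin cytoskeleton, had ratios near 0 (0.07, -0.33 to 0.45, and 0.17, -0.15 to 0.48). The cGMP-dependent kinase Prkg1, which relaxes smooth muscle, was lower at -0.47 and -0.60. Mylk, the kinase that starts contraction, thus differed more than Rhoa.

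Among calcium and ion channel genes, 4 of 11 were at least 2-fold higher in both libraries and 2 lower. Kcnab1, a beta subunit of voltage-gated potassium channels, was at 955 against 5.89 CPM in ATRA+agonist (log2 ratio 7.34, 6.09 to 8.99) and 1538 against 36.1 CPM in DMSO vehicle (5.41, 4.92 to 5.95). Pln was at 323 against 2.36 CPM (7.10, 5.17 to 10.2) and 328 against 4.01 CPM (6.36, 4.94 to 8.27). Kcnma1, the pore of the large-conductance calcium-activated potassium channel, had ratios of 6.46 and 4.57, and the sodium-calcium exchanger Slc8a1 had 2.69 and 2.91. Pericytes instead had more of calsequestrin Casq2 (-1.11 and -1.45), which stores calcium. The other 5 of the 11 genes passed 2-fold in both libraries in neither direction. Ryr2, the calcium release channel, was below the limit on UMIs used for the list and is not among the 11. It had 19 and 40 UMIs in members and 0 in pericytes. With 3 counts set for each 0, its levels were 34.7-fold and 59.8-fold higher in members, again without the counting error of the members' UMIs.

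Some receptor and matrix genes were higher in pericytes. No vasoactive receptor of 8 compared was at least 2-fold higher in members of both libraries, and 3 were lower, among them the angiotensin receptor Agtr1a (-4.44 and -3.53) and the endothelin receptor Ednrb (-1.72 and -3.94). Gucy1a1, a subunit of the nitric oxide receptor, differed little (-0.00 and 0.32). Of 13 matrix and integrin genes, 5 were lower in both libraries, among them the basement membrane collagens Col4a1 (-2.04 and -1.46) and Col4a2 (-1.81 and -1.42). Itga8, an integrin subunit of smooth muscle below the limit on UMIs used for the list, had 25 and 51 UMIs in members and 0 in pericytes. The pericyte markers outside the rule were lower, with 3 of 6 past 2-fold in both libraries (Pdgfrb, Vtn and Steap4). Vtn, for example, was at 110 and 112 CPM in members against 1347 and 880 CPM in pericytes. Notch3, the receptor that both mural cell types use, was equal within its interval at -0.02 (-0.31 to 0.26) and 0.03 (-0.22 to 0.28).

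Transcription factors differed in a few genes. Klf4, a zinc-finger factor associated with smooth muscle plasticity, was higher in members, with log2 ratios of 1.13 (0.75 to 1.51) and 2.11 (1.83 to 2.38), as was Tbx2, and no gene of the 10 compared was lower by 2-fold in both. Myocardin (Myocd), below the limit on UMIs used for the list, had log2 ratios of 3.12 (2.00 to 4.29) and 4.06 (3.19 to 5.03). Of the 6 genes compared in a list of metallothionein genes, Id genes and Sirt2, some of which the study described in muscle stem cells of these libraries, Mt1, Id3 and Id4 were higher in both libraries, with Mt1 at 1.54 and 2.26. Outside these lists, the genes furthest above pericytes, ranked by the ratio nearer to 0, included Thsd4 (8.85 and 5.88), Crispld2 (5.37 and 4.51) and the actin-associated Palld (4.46 and 4.04). Those furthest below included Pde7b (-5.12 and -4.45), a phosphodiesterase of cAMP, and Cpm (-3.90 and -4.08), a membrane carboxypeptidase.

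**Figure D2:**
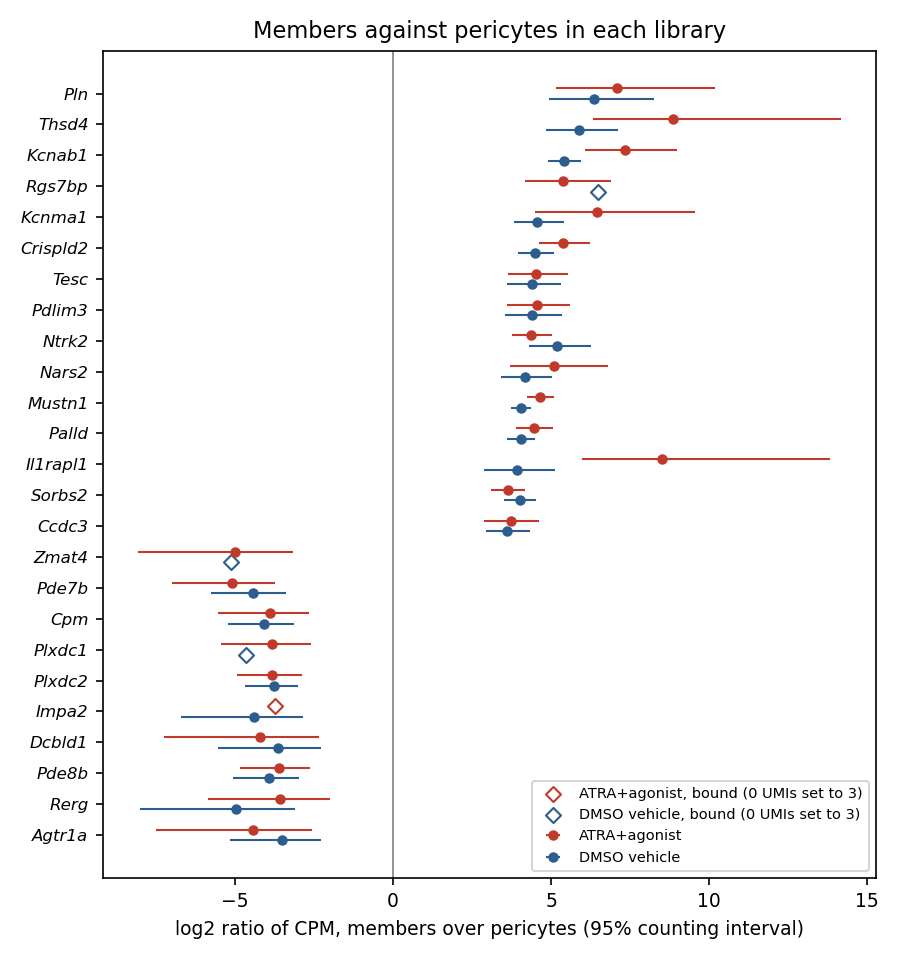
Log2 ratio of CPM, members over pericytes, for the 15 genes furthest above and the 10 furthest below 0, ranked by the library nearer to 0 (rows), red for ATRA+agonist and blue for DMSO vehicle, with 95% counting intervals. Open diamonds are bounds where a class had 0 UMIs. Each gene lies on the same side of 0 in both libraries, from Pln at 7.10 and 6.36 to Agtr1a at -4.44 and -3.53.

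Members were also divided by K relative to S. Since the rule used both sums, genes that go with either could be expected to follow the bands, and the values are a description. Members with K at most 0.1 of S numbered 19 in ATRA+agonist and 27 in DMSO vehicle, those with K above 0.1 to 0.5 of S numbered 10 and 8, and those above numbered 4 and 4. Cnn1 UMIs numbered 16, 1 and 0 from the lowest to the highest K band in ATRA+agonist, and 27, 0 and 0 in DMSO vehicle. Kcnab1 was at 1168, 767 and 0 CPM in the 3 bands of ATRA+agonist, and at 1833, 1124 and 69.6 CPM in DMSO vehicle. Pln also had its highest level in the lowest band, at 451, 135 and 0 CPM and at 450.0, 87.8 and 0 CPM. The pericyte gene Steap4 had its lowest level in the lowest band, at 10.2, 338 and 230.5 CPM and at 6.62, 281 and 139 CPM, and Vtn was at 61.5, 181 and 231 CPM and at 13.2, 299 and 418 CPM. Notch3 had no common order over the bands, at 553, 1151 and 1306 CPM and at 794, 632 and 418 CPM. The highest band rests on 4 members per library.

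Malat1, a long noncoding RNA retained in the nucleus (chr19:5795690-5802672, GRCm38), also varied among members. Members were thinned to 1000 UMIs each, which left out 3 ATRA+agonist members and none of DMSO vehicle. Among 188 genes, Malat1 had the highest variance over mean in both libraries, 39.2 and 33.7, where the medians over genes were 1.78 and 1.67. The measure can rise with the level of a gene and was not adjusted for it. Thinned Malat1 counts ran from 0 to 147 UMIs with a median of 51 in ATRA+agonist, and from 0 to 152 with a median of 37 in DMSO vehicle. Other genes of high variance were Acta2 and Tagln, which the rule used, Crip1, Myl6, Tpm2, and the mitochondrial genes mt-Co3 and mt-Atp6. Gm42418 (21.2 and 20.8) and Arih1, a ubiquitin ligase (11.1 and 7.75), were also among the 12 most variable. Contractile and mitochondrial transcripts thus stood among these genes, though not alone. When members were thinned to 2000 UMIs, which 27 and 36 members reached, 9 of the 12 were again among the 12 most variable. Myl6 and Tpm2 were not.

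Malat1 and contractile transcripts ran in opposite directions across members. Malat1 was under 1% of UMIs in 10 and 11 members and 1% or more in 23 and 28, with 3 members of each library between 0.5% and 2%. No member lay between 0.2305% and 1.271% in ATRA+agonist, or between 0.7999% and 1.708% in DMSO vehicle. The limit was chosen after seeing the data, and whether it divides types was not tested. Spearman's correlation between Malat1 percent and the level of Acta2 plus Tagln was -0.78 over 33 members and -0.69 over 39, as a description, since both are shares of the same UMIs. Acta2 was at 19508 CPM in Malat1-poor and 7451 CPM in Malat1-rich members of ATRA+agonist, and at 19156 and 7471 CPM in DMSO vehicle. Malat1-rich members had a lower level in both. The log2 ratio of rich over poor was -1.86 (-2.13 to -1.58) and -1.79 (-2.01 to -1.56) for Myl9, and -1.58 and -1.40 for Tpm2. Lmod1, which nucleates actin filaments, had ratios of -0.00 (-0.78 to 0.84) and -0.32 (-0.88 to 0.27), both spanning 0. Cald1 had 0.22 and 0.27, also spanning 0, and Synpo2, an actin-bundling protein, was higher at 1.10 and 0.69. Not all contractile genes thus followed Acta2.

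**Figure D3:**
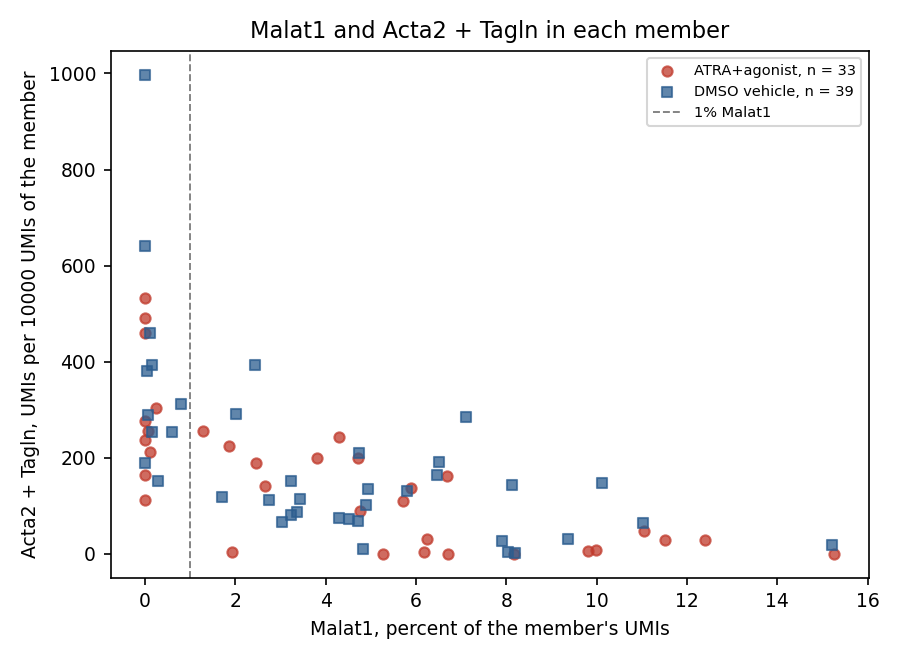
Each point is 1 member, with Malat1 as percent of its UMIs on the x axis and the UMIs of Acta2 plus Tagln per 10000 on the y axis, red for ATRA+agonist (33) and blue for DMSO vehicle (39). The dashed line marks 1% Malat1, with 10 and 11 members to its left. Levels of Acta2 plus Tagln are highest on the left and low at the highest Malat1 percents in both libraries.

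Some channel and signalling genes had the reverse order, and others did not. Of 8 calcium and ion channel genes with at least 100 UMIs, 3 were at least 2-fold higher in Malat1-rich members of both libraries and Pln was lower (-1.08 and -1.24). Kcnab1 was higher in Malat1-rich members, with log2 ratios of 1.85 and 3.38, as were Prkg1 (3.98 and 2.66), the L-type calcium channel Cacna1c (178 against 6 UMIs and 213 against 12) and dystrophin Dmd (5.02 and 3.93). Notch3 had ratios near 0 (0.03, -0.60 to 0.70, and -0.39, -0.89 to 0.14). Genes higher in Malat1-rich members spanned long loci, such as Prkg1 with 1200.5 kb and Dmd with 2257 kb. Neat1, another nuclear RNA, had 52 UMIs in Malat1-rich against 1 in Malat1-poor members of ATRA+agonist, and 109 against 0 in DMSO vehicle. Of 622 genes with at least 100 UMIs, 129 were at least 2-fold higher and 66 at least 2-fold lower in Malat1-rich members of both libraries. The median gene span was 195 kb for the higher genes, 5.62 kb for the lower and 20.1 kb for all compared. Whether intron reads were counted is not given in the sources used here, and the part of gene span was not tested. Of 79 ribosomal protein genes, 78 were below 0 in both libraries, and the share of all 622 genes below 0 in both was not counted. Among the lowest in Malat1-rich members was Atp5b, of the mitochondrial ATP synthase (-2.10 and -1.80). Mitochondrial transcripts had medians of 12.3% in Malat1-poor and 6.23% in Malat1-rich members of ATRA+agonist, and 7.83% and 4.72% in DMSO vehicle. Loss of nuclear or of cytoplasmic RNA from a cell and a difference in its expression cannot be told apart here.

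Whether cells were in the cycle was read from Mki67 and Top2a, which are transcribed in dividing cells. Neither had a UMI in any of the 33 and 39 members. These counts of 0 allow shares of members with a UMI of up to 9.09% and 7.69%.

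The comparison between the libraries asked how the retinoid treatment related to the number and the transcripts of smooth muscle cells. Members made up 0.442% (0.304 to 0.620) of filtered cells in ATRA+agonist and 0.519% (0.369 to 0.709) in DMSO vehicle, by exact Clopper-Pearson intervals. The ratio of the shares was 0.852 (0.536 to 1.35), so a difference was not detectable at these numbers. With K limited to at most 1, which left 13 and 24 members, the ratio was 0.545. Of members and pericytes together, members were 12.2% (8.57 to 16.7) and 12.5% (9.07 to 16.7). Before the filters, 35 and 52 barcodes passed the marker rule, of which 2 and 13 were removed.

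Between the libraries, levels in the members are sums over 33 and 39 cells, and each log2 ratio is ATRA+agonist over DMSO vehicle. Of 1333 genes with at least 50 UMIs, 40 (3.0%) were at least 2-fold higher and 55 (4.13%) at least 2-fold lower in ATRA+agonist, with a median of -0.08. Few of these differences were spread over many cells. Of 33 genes with at least 100 UMIs past 2-fold, 28 had at least 50% of their UMIs in 5 members of the higher library. The share of all 622 genes with at least 100 UMIs that were as concentrated was not counted. Whether 28 of 33 is unusual is therefore not known. Csmd1, chosen after its values were seen, had 54 and 320 UMIs that came from 2 and 9 members. The 10 highest and 10 lowest genes were therefore required to have a UMI in at least 10 members, with the top 5 members holding under 50%. Both limits applied only in the library where the gene was higher, and genes of the lists had neither. In ATRA+agonist, 5 members held from 44.8% (Dmd) to 72.2% (Gadd45g) of the UMIs of the 10 lowest genes. Of the 622 genes, 282 met all naming limits.

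Contractile genes differed little between the libraries. Of 20 filament genes, 1 was at least 2-fold higher and none lower, with a median of -0.17, 4 genes above 0 and 16 below. Over all 1333 genes compared, 603 were above 0 and 730 below. Intervals of filament genes lay above 0 for 3 genes and below it for 4, with no share over all genes counted beside them. The gene past 2-fold was Pdlim7, a scaffold of actin filaments, at 245 CPM in ATRA+agonist and 98.9 CPM in DMSO vehicle (1.31, 0.52 to 2.14). Tpm2 (-0.06, -0.21 to 0.10), Flna (-0.01, -0.26 to 0.25) and Mustn1 (-0.00, -0.24 to 0.23) had narrow intervals around 0. Desmin (Des) was at 717 and 468 CPM (0.62, 0.22 to 1.02) and Vcl at 568 and 373 CPM (0.61, 0.16 to 1.06). Synpo2 had the lowest ratio of the list, at -0.49 (-0.84 to -0.13), and Csrp1 (-0.36, -0.71 to -0.02), Dstn (-0.24, -0.47 to -0.01) and Crip1 (-0.14, -0.26 to -0.03) were also below 0. None of 12 myosin regulators passed 2-fold in either direction, with a median of -0.15, from Rock1 (-0.45) to the phosphatase Ppp1cb (0.19). Myl9 was at 2860 and 2877 CPM (-0.01, -0.19 to 0.17) and Mylk at 1491 and 1735 CPM (-0.22, -0.46 to 0.02).

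Ion channel genes differed in both directions. Of 10 compared, 1 was at least 2-fold higher and none lower, with a median of 0.10. Ano1, the calcium-activated chloride channel, was at 471 CPM in ATRA+agonist, where 5 members held 52.1% of its UMIs, and 234 CPM in DMSO vehicle (1.01, 0.48 to 1.55). Slc8a1 was at 697 and 391 CPM (0.83, 0.41 to 1.26). In contrast, the potassium channel genes were lower, with Kcnma1 at 207 and 405 CPM (-0.97, -1.60 to -0.37) and Kcnab1 at 955 and 1538 CPM (-0.69, -0.97 to -0.40). The pump Atp2a2 was at 955 and 755 CPM (0.34, 0.01 to 0.67), and its inhibitor Pln was level at 323 and 328 CPM (-0.02, -0.57 to 0.51). Kcnma1 had a UMI in 11 of 33 and 23 of 39 members. Per member, Kcnma1 had a median of 0 UMIs per 10000 in ATRA+agonist and 2.60 in DMSO vehicle, and the ranges overlapped (0 to 14.6 and 0 to 20.1).

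Receptor, signalling and matrix genes had few measured members. None of 5 vasoactive receptors, 9 Notch, PDGF and TGF-beta genes or 10 matrix and integrin genes passed 2-fold, with medians of 0.02, 0.23 and -0.05. Ednra, the main endothelin receptor of smooth muscle, was at 232 and 229 CPM (0.02, -0.64 to 0.66), and Notch3 at 787 and 728 CPM (0.11, -0.24 to 0.46). The nitric oxide receptor subunit Gucy1a1 had 0.12 (-0.22 to 0.45). The intervals of these 3 genes all included 0.

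Among 8 smooth muscle transcription factors, none passed 2-fold, with a median of 0.09. Myocd was at 123 and 234 CPM (-0.93, -1.77 to -0.15), from 10 and 14 members. Klf4 was at 529 and 958 CPM (-0.86, -1.24 to -0.48), while its log2 ratio in pericytes was 0.12 (-0.16 to 0.40). Per member, Klf4 ran from 0 to 35.6 UMIs per 10000 with a median of 2.01 in ATRA+agonist, and from 0 to 53.1 with a median of 2.78 in DMSO vehicle. The ranges overlapped over most of their extent. Of 18 genes of modulated smooth muscle cells, which lose contractile genes and make matrix, 4 could be compared, none passed 2-fold and the median was -0.41, from Col3a1 (-0.93) to the intermediate filament Vim (0.16).

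Retinoid pathway genes were mostly too sparse for a comparison. Of 24, only Tgm2 and Ndufa2 reached 50 UMIs. Transglutaminase Tgm2, a known target of retinoic acid receptors, was at 297 and 180 CPM (0.72, 0.08 to 1.37), from 46 and 40 UMIs in 16 and 20 members. In the same contrast Tgm2 had -0.26 in pericytes, -0.70 in endothelial cells and -0.61 in mesenchymal progenitors. Ndufa2, a subunit of respiratory complex I, had 0.22 (-0.44 to 0.86). The receptors were near the detection limit, with Rara at 0 and 5 UMIs, Rarb at 8 and 15, Rarg at 5 and 1, and Rxra at 4 and 3. The retinol transporter Stra6 had 0 UMIs in both libraries, and the retinal reductase Dhrs3 had 10 and 12 UMIs. At these counts no difference in receptor level was detectable.

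The lowest ratio among the named genes was that of metallothionein Mt1, which binds zinc and other metals (chr8:94179082-94180327, GRCm38). Mt1 was at 826 CPM (689 to 982) in ATRA+agonist from 19 of 33 members, and at 2333 CPM (2137 to 2543) in DMSO vehicle from 27 of 39. Its log2 ratio was -1.50 (-1.79 to -1.22). Per member, Mt1 ran from 0 to 45.7 UMIs per 10000 with a median of 4.09, and from 0 to 73.1 with a median of 7.199, so single members overlapped while the highest were in DMSO vehicle. Mt1 was also lower in pericytes (-0.78), endothelial cells (-0.98) and mesenchymal progenitors (-0.72) of the same libraries. Mt2 had 8 and 30 UMIs. Id3, an inhibitor of helix-loop-helix factors, was at 587 and 769 CPM (-0.39, -0.77 to -0.01). With the Malat1-rich members alone the Mt1 ratio was -2.01, and with the Malat1-poor members alone it was -0.65. Without members that had 15 or more UMIs of another type's markers, pericyte and red blood cell lists not counted, it was -1.67.

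Among genes that met the naming limits between libraries, 1 other lower in ATRA+agonist was Fam129a (-1.39, -1.91 to -0.90), a regulator of the stress response. The rest were Spag9 (-1.02), a scaffold of JNK signalling, Midn (-0.97), the nuclear corepressor Ncor1 (-0.88), Ifitm2 (-0.85), Dmd (-0.79, -0.98 to -0.61), the ferritin light chain Ftl1 (-0.74), the integrin activator Fermt2 (-0.71) and the stress gene Gadd45g (-0.70). Fam129a was at 278 and 728 CPM, from 18 of 33 and 30 of 39 members, with medians of 1.25 and 4.16 UMIs per 10000. Dmd, which links the actin cytoskeleton to the basement membrane, was at 2188 and 3790 CPM, and its ratio in pericytes was alike at -0.76. Gadd45g was lower in pericytes as well, at -1.18. Spag9 and Fam129a were lower in pericytes by less (-0.41 and -0.36), and Ncor1 was not (0.20, -0.03 to 0.44).

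Genes higher in ATRA+agonist that met the same limits had lesser ratios. Ech1, an enzyme of fatty acid oxidation in mitochondria and peroxisomes, was at 420 and 202 CPM (1.05, 0.48 to 1.63), from 65 and 45 UMIs. The chaperone Hspa8 was at 1039 CPM in 30 of 33 members and 647 CPM in 32 of 39 (0.68, 0.35 to 1.02). Per member, Hspa8 had medians of 8.37 and 5.56 UMIs per 10000 and highest values of 33.8 and 19.2, with overlapping ranges. Both genes had lower ratios in pericytes, 0.27 for Ech1 and 0.06 for Hspa8. The others were the guidance ligand Slit3 (0.75), the kinase Mast4 (0.64), the aminopeptidase Aopep (0.64), the phospholipase Plce1 (0.63), Atp5b (0.63), the ubiquitin-conjugating enzyme Ube2h (0.55), the spectrin Sptbn1 (0.52) and Rrbp1 (0.52), where the intervals of Ube2h and Rrbp1 included 0. Of these genes Slit3, Mast4, Aopep and Rrbp1 were not higher when the Malat1-poor members were taken alone.

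**Figure D4:**
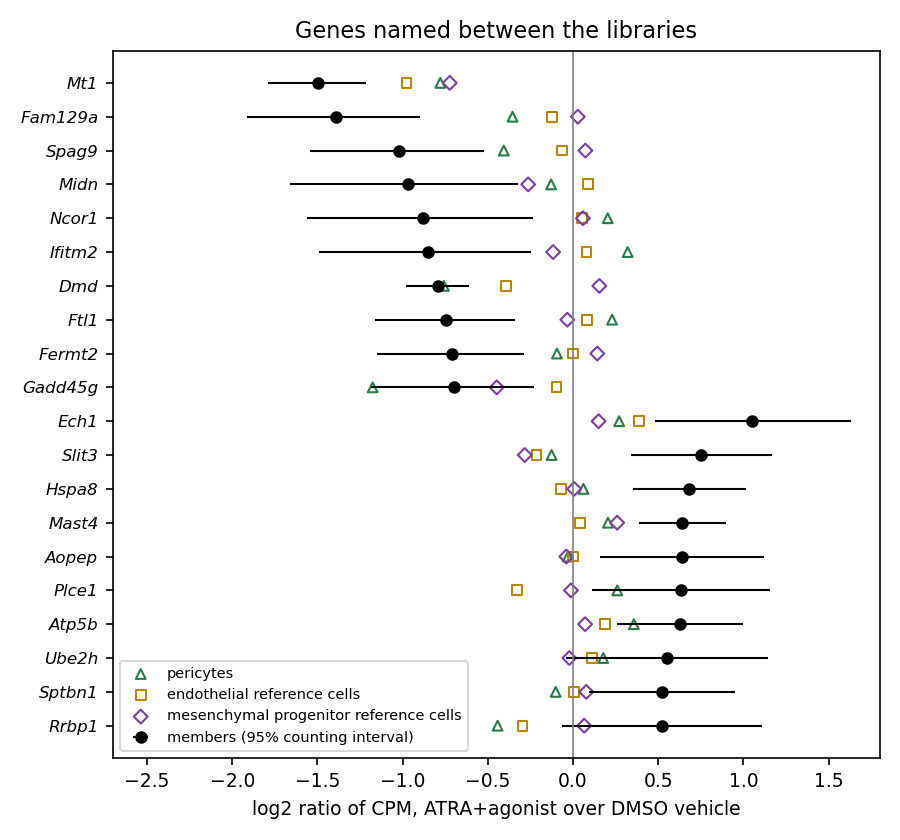
Log2 ratio of CPM, ATRA+agonist over DMSO vehicle, for the 10 lowest and the 10 highest genes that met the naming limits between libraries (rows). Genes of the lists that did not meet them are not shown. Black points with 95% counting intervals are the members, and open symbols are pericytes (triangles), endothelial cells (squares) and mesenchymal progenitors (diamonds). Mt1 is below 0 in all 4 cell classes (-1.50, -0.78, -0.98 and -0.72), whereas Fam129a is at -1.39 in members and -0.36 in pericytes.

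**Figure D5:**
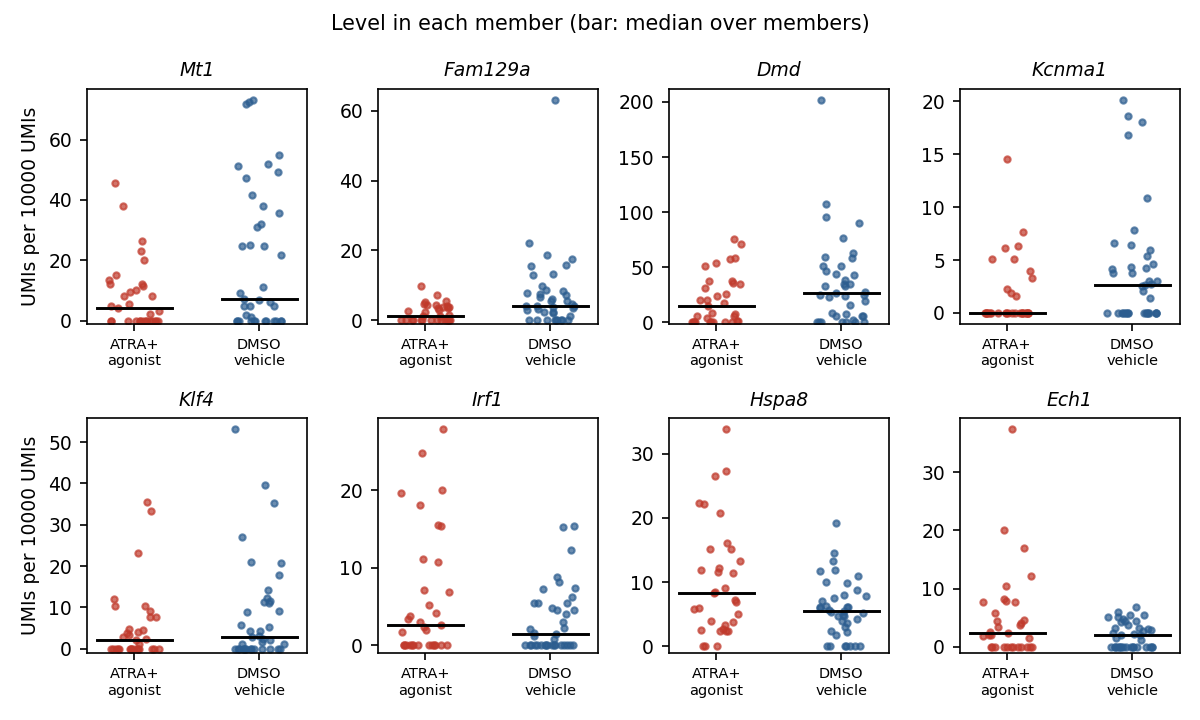
UMIs per 10000 UMIs of each member for 8 genes, red for ATRA+agonist (33 members) and blue for DMSO vehicle (39), with the median as a bar. Points were spread sideways at random. In every panel the libraries overlap and have members at 0, from 3 and 7 members for Hspa8 to 22 and 16 for Kcnma1.

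Immediate early genes, which respond within minutes to stimulation, and heat shock genes formed 1 list. Of 15 compared, 7 were above 0 and 8 below, none passed 2-fold, and the median was -0.17 against -0.52 for the same genes in pericytes. Over all 1333 genes compared in members, 603 were above 0 and 730 below. Fos was at 3434 and 2877 CPM (0.26, 0.09 to 0.42), Jun at 2079 and 1533 CPM (0.44, 0.21 to 0.66) and Fosb at 1691 and 1277 CPM (0.41, 0.16 to 0.65). The mRNA-decay factor Zfp36 was at 497 and 823 CPM (-0.73, -1.13 to -0.34) and the phosphatase Dusp1 at 226 and 364 CPM (-0.69, -1.30 to -0.10). Genes of the same list thus lay on both sides of 0.

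Of 6 interferon-response genes compared, 1 was at least 2-fold higher, with a median of -0.25. Irf1, the interferon regulatory factor, was at 710 and 328 CPM (1.11, 0.67 to 1.56), from 20 and 22 members, 5 of which held 60.9% of its UMIs in ATRA+agonist. Irf1 ran from 0 to 27.9 UMIs per 10000 with a median of 2.64, and from 0 to 15.4 with a median of 1.43, and the ranges overlapped. The GTPase Iigp1 was at 542 and 733 CPM (-0.43, -0.83 to -0.05), yet from 6 and 9 members. Of 18 glucocorticoid and clock genes, Klf9 alone had 50 UMIs (-0.24, -0.61 to 0.13), while Zbtb16 had 9 and 28 UMIs and Sgk1 6 and 23.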

How the data were processed

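Single-cell RNA-Seq counts of 2 libraries, ATRA+agonist and DMSO vehicle, were used. The deposited counts are the authors' Cell Ranger 7.2.0 output for droplet reads on mm10 (GRCm38), limited to barcodes called as cells. Counts are whole UMIs per gene and barcode for 32285 genes, not normalized, with totals of 65197625 and 109343486. The annotation release and the counting of introns are not given in the sources used here.

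Cells had 300 to 5000 genes, a mitochondrial share of UMIs below 20% and a hemoglobin beta share below 0.25%, the limits the study describes. Doublets were not removed, except in an alternative in which the 7.5% of cells with the highest artificial-doublet scores were left out. The UMIs of a class in a library were added up, divided by all UMIs of that class and given per 1000000 (CPM), with exact Poisson intervals. Ratios have exact intervals conditional on the summed count, and a count of 0 was set to 3 counts per library, which gives a bound. That bound leaves out the counting error of the other count. UMIs mark molecules, so PCR copies were counted once. Pericytes had K of at least 5 and above S. Endothelial cells had at least 3 UMIs of Pecam1 and Cdh5, and mesenchymal progenitors at least 2 UMIs of Pdgfra, each with at most 1 UMI of other types' genes. With 1 library per group, no test between groups and no p-value was possible.

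Genes were called at a ratio of 2 or more among those with at least 50 UMIs between libraries. Against pericytes the limit was at least 100 UMIs over both classes and libraries. Named genes were those of the lists with at least 50 UMIs and the 10 highest and 10 lowest between libraries. The 15 highest and 10 lowest against pericytes and the 12 most variable were named too. Those between libraries had at least 100 UMIs over both libraries. In the library where each was higher, it had a UMI in at least 10 members, with the top 5 members holding under 50%. Its level there was at least the highest reference class divided by 4. Listed genes with fewer UMIs are given as counts. The members and lists were chosen with earlier results of these data known. Gene positions are from GENCODE M21, where all 341 genes looked up matched, and promoter windows are from RefSeq GRCm38.p6. Scripts were tested on simulated data and used Python 3.11.15, NumPy 2.4.6, SciPy 1.17.1 and pandas 2.3.3. Alternatives were other gates, doublet removal, thinning to 1000 UMIs and other count minimums.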

Additional observations from a re-analysis of the deposited data

Results flagged for a closer look

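For 11 named genes, the log2 ratio of ATRA+agonist over DMSO vehicle lay on opposite sides of 0 in members and in pericytes, with both counting intervals clear of 0. Only genes of the lists and the 20 genes named between libraries were screened. The share over all genes compared was not counted, so whether 11 is more than usual is not known. The differences between the classes were not tested, since each class had 1 library per group. Among cytoskeletal genes, Vcl had 0.61 in members and -0.34 in pericytes, Crip1 had -0.14 and 0.14, and Myl6 had -0.23 and 0.19. The calcium pump gene Atp2a2 had 0.34 and -0.25. Of the immediate early genes, 4 had positive ratios in members and negative ones in pericytes, with 0.26 and -0.65 for Fos, 0.41 and -0.27 for Fosb, 0.44 and -0.30 for Jun, and 0.41 and -0.66 for the antiproliferative gene Btg2. Of interferon-related genes, Irf1 had 1.11 and -0.33, and Ifitm2 had -0.85 and 0.32. The ferritin gene Ftl1 had -0.74 and 0.23.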

How the results depend on the processing

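No paired analysis was possible because each group had 1 library and leaving out a library would leave its group empty. Of 216 alternative values, 196 were labelled as unchanged and 20 as moved. A list median counted as unchanged between the medians of its genes' lower and upper counting limits, and a count within a set fold. These limits let signs change. With K at most 1 the interferon median was 0.23 against -0.25, and the vasoactive receptor median was -0.53 against 0.02. Both counted as unchanged, so the 196 values do not measure stability of sign. The settings without marker-rich members, with Acta2 plus Tagln at least 10, and with Malat1 at least or under 1% were chosen after seeing the data.

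With K at most 1, 13 ATRA+agonist and 24 DMSO vehicle members were left, 23 genes were higher by 2-fold, and the ion channel median was -0.53. With cells thinned to 1000 UMIs, 2 genes were higher and 14 lower, and the medians of ion channel and of Notch, PDGF and TGF-beta genes were 0.55 and 0.96. Acta2 plus Tagln at least 10 left 22 higher genes. Malat1 under 1% left 9 higher and 11 lower genes, which rest on 10 and 11 members, and an interferon median of 0.61. Removing doublets left 29 and 33 members and gave an interferon median of 0.69, so that list had no stable sign. A minimum of 20 UMIs gave 176 higher and 240 lower genes, and one of 200 UMIs gave 2 and 8. Against pericytes, thinning gave 49 higher and 154 lower genes, of which 45 and 128 were among those reported. Pericytes with K at least 10 and S at most 2 gave 256 lower genes, 228 of them among those reported. The cause of these moves was not tested, apart from fewer cells or genes in each.

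Of the 20 genes named between libraries, 15 kept their direction under all 16 alternatives. Ncor1 was at 0.52 when thinned, and with Malat1 under 1% Slit3 was at 0.00, Mast4 at -0.77, Aopep at -0.59 and Rrbp1 at -0.24. Mt1 ran from -2.01 to -0.65. The median of all genes ran from -0.11 to -0.00. With 33 and 39 members, depth limits ratios of genes under about 100 UMIs.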
